A study of Mus musculus with 2 samples.

Results

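The T cell receptor (TCR) complex and the proteins that carry its first signal were followed through 10 genes, Trac, Trbc1, Trbc2, Cd3d, Cd3e, Cd3g, Cd247, Lck, Zap70 and Lat, of the 20282 genes counted in 13683 single cells of mouse thymus. The genes were chosen by name, all 10 were in the count matrix, and all 10 had at least 20 unique molecular identifiers (UMIs) in every comparison of thymocyte stages given here. Thymocytes came from Cdc42f/f mice (WT), which carry the floxed gene without Cre, and from their Cdc42f/f CD4Cre littermates (KO), 5 mice of each genotype, all 6 weeks old. In the KO mice Cre expressed from CD4 regulatory sequence removes a floxed exon of Cdc42, so that the gene is intact in cells that have never expressed CD4. The cells of the 5 mice were pooled, so each genotype is 1 library and no difference between WT and KO has a replicate check. Levels are CPM, UMIs per 1000000 UMIs of the same cells and library, log2 ratios were taken after 0.5 was added to both sums, and values in parentheses are exact 95% intervals that cover counting error only, neither mouse nor library variation. A difference of at least 1.5-fold between 2 sums was counted as higher or lower, with no test behind it.

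The deposited clusters were grouped by their leading marker. The Rag1 clusters (deposited clusters 0 to 4, 3636 WT and 4641 KO cells) are CD4+CD8+ double-positive (DP) by their markers: the summed level of 8 DP markers was 12218 CPM in WT and 12189 in KO, against 1261 and 1489.7 in the single-positive (SP) clusters. The Cd5 clusters (5 and 9, 535 and 843 cells) also carried markers of cells signalled through the TCR, summing to 3605 and 3100.2 over 6 genes against 228 and 228 in the Rag1 clusters. The SP clusters are the Itm2a cluster (6, 479 and 316 cells) and the Ms4a4b cluster (7, 332 and 396 cells). In them 8 SP markers summed to 1826 and 1639, and 3918 and 5528 CPM. Ms4a4b, which names the latter cluster, is among the 8, at 323 and 137, and 1591 and 1874.5 CPM. The Itm2a cluster also carried markers of signalled cells, with Itm2a, which names it, at 1613 and 2064 and Cd5 at 373 and 522 CPM. Cycling cells are the proliferating clusters (10 to 13, 686 and 737 cells), which also carried DP markers (4797 and 4339 CPM). The small Myl10 cluster (14, 54 and 99 cells) carried both double-negative (DN) and gamma-delta markers. The libraries held 29706197 and 37920214 UMIs, with medians of 3192 and 3401 per cell, and shared 17 barcodes. Cdc42 itself does not check the labels, because 3′-end tags can lie outside the deleted exon: in the SP clusters it stood at 418 (401 to 436) CPM in WT and 491 (470.2 to 513) in KO.

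The alpha-beta TCR binds peptide and MHC through its alpha chain, whose constant region is Trac, and its beta chain, whose constant region is Trbc1 or Trbc2. The CD3 gamma, delta and epsilon chains and the zeta chain (Cd247) carry the tyrosine motifs that signal into the cell. The kinase Lck, bound to CD4 or CD8, phosphorylates these motifs, ZAP-70 docks on them and phosphorylates the membrane adaptor LAT, on which the enzymes of the next steps gather. In the thymus the beta chain is rearranged first and is tested at the DN stage together with the pre-TCR alpha chain (Ptcra). The alpha chain is rearranged in DP cells, and cells whose complete receptor is signalled become CD4 or CD8 SP cells. The beta locus holds a pair of D-J-C units: a rearrangement into the first unit is spliced to Trbc1, and one that joins to the second unit deletes Trbc1 from that allele.

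Trbc1 (chr6:41538218-41539881) and Trbc2 (chr6:41546730-41548352; GRCm38, plus strand, annotated as TCR constant-region genes) lie 6848 bases apart on chromosome 6, and whether counting can tell them apart decides what their UMIs mean. Their annotated coding parts of 521 bases differ at 23 positions (95.6% identity), and 22 of these lie in the last 156 bases, which encode the connecting peptide, the membrane segment and the short tail. That stretch is shown from coding base 366 to the stop codon in the GENCODE vM21 transcripts, with the differing bases in capitals:
Trbc1: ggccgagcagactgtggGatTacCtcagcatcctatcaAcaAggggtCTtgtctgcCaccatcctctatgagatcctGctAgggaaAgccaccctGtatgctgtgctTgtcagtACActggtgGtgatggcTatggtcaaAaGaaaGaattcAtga
Trbc2: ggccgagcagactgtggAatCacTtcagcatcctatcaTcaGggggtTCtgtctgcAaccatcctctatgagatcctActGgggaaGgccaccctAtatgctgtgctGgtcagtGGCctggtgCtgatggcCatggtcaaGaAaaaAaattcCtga
After the stop codon the transcripts share no stretch of 50 bases, whereas 283 of 472 such stretches in the coding part are common to both. The libraries were made with a 3′ kit, whose reads fall mostly near the end of a transcript, so most of the UMIs can be assigned, but reads from the shared coding part cannot.

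Trbc1 divided the DP thymocytes. In the Rag1 clusters 0, 1 and 4 it stood at 6107, 6543 and 7759.6 CPM in WT and at 5982, 6363 and 7292 in KO. In Rag1 clusters 2 and 3 it stood at 49.2 and 52.5 in WT and at 58.8 and 56.0 in KO. The Cd5 clusters split the same way, with 7432 and 6814 in cluster 5 against 78.7 and 74.4 in cluster 9. The nearly Trbc1-free clusters were not free of beta chain: Trbc2 stood at 9094, 10905 and 9339 in clusters 2, 3 and 9 of WT, above 6341, 6432, 8332 and 7065 in clusters 0, 1, 4 and 5. In KO the corresponding Trbc2 levels were 8594, 9938 and 9639.7 against 5977, 6094, 8033 and 6696. Trbc1 was open to the authors' clustering, so these levels describe the clusters and are no test of them. No other cluster of thymocytes came close to the levels of clusters 2, 3 and 9: in the remaining clusters up to 14, Trbc1 was at least 1749 in WT and 1788 in KO.

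**Figure D1:**
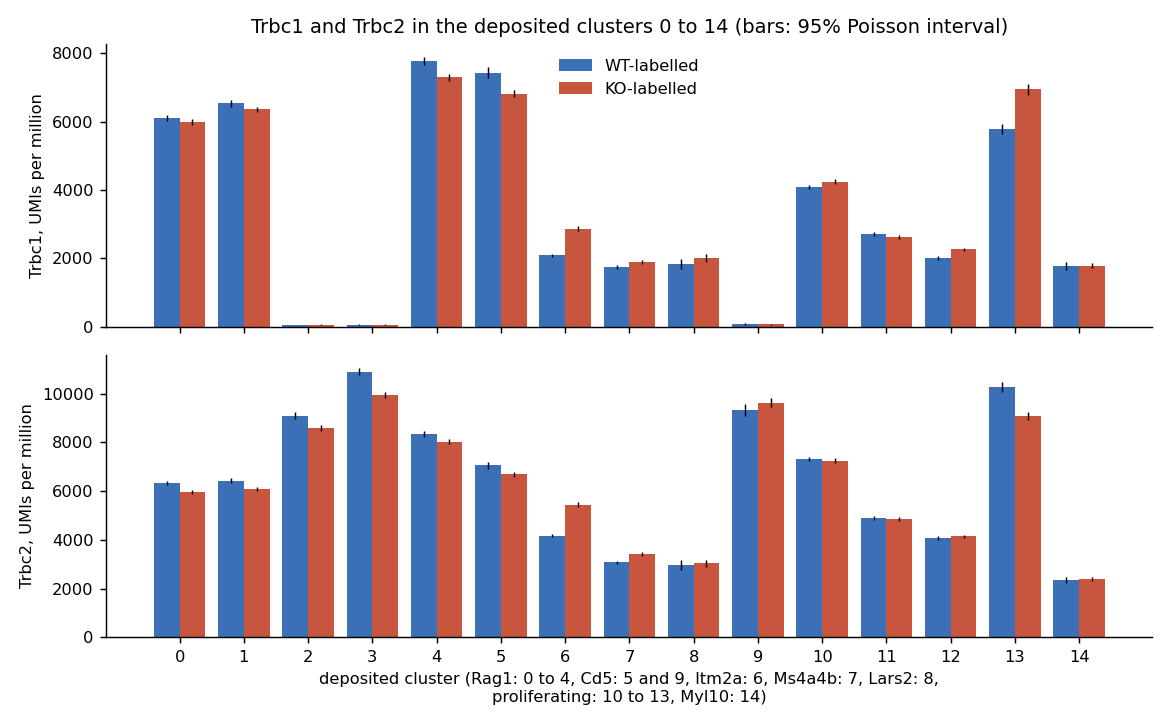
CPM of Trbc1 (top) and Trbc2 (bottom) on linear axes in each deposited cluster from 0 to 14, for the WT library (blue) and the KO library (red), with exact 95% Poisson intervals as thin lines. Trbc1 is nearly absent from clusters 2, 3 and 9 in both libraries (49.2 to 78.7 CPM in WT), where Trbc2 is between 8594 and 10905.

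The same Trbc1 UMIs were also read cell by cell over all cells of the Rag1 stage, clusters 0 to 4. Among cells of the Rag1 stage with at least 10 Trbc UMIs, the share of Trbc1 in a cell's Trbc UMIs was under 5% in 1106 of 3494 cells (31.7%, Clopper-Pearson interval 30.1 to 33.2%) of WT and in 1381 of 4528 cells (30.5%, Clopper-Pearson interval 29.2 to 31.9%) of KO. The marks of 5% and 10 UMIs were set after the data were seen, and 107 WT and 148 KO cells lay just above the mark, between 5 and 10%. Most of the rest held both transcripts, with a Trbc1 share from 10 to 90% in 64.3% of WT and 64.9% of KO cells. The opposite state was rare, since 9 WT and 19 KO cells had a Trbc1 share of at least 95%, and 4 WT and 5 KO cells had no Trbc2 UMI. Of the cells under the mark, 51.1% and 47.1% lay in clusters 2 and 3 of WT and 48.0% and 50.1% in those of KO. The mark uses the Trbc1 UMIs that were open to the clustering, so this overlap is no test of either.

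About the same share of cells was under the mark in both libraries. It was 29.4% (26.0 to 33.0%) of WT and 27.3% (24.1 to 30.7%) of KO cells in the proliferating clusters, 32.2% (28.2 to 36.4%) and 32.3% (29.2 to 35.6%) in the Cd5 clusters and 35.2% (31.9 to 38.6%) and 31.6% (28.1 to 35.3%) in the SP clusters, and the WT and KO intervals overlapped at each of these stages and at the Rag1 stage. The Itm2a cluster of WT stood above the Rag1 stage, with 39.5% (35.0 to 44.0%) and 33.3% (28.1 to 38.9%) in KO, whereas the Ms4a4b cluster had 28.8% (23.8 to 34.1%) and 30.2% (25.5 to 35.2%). The Myl10 cluster stood apart with 2.50% (0.0633 to 13.2%) of 40 WT cells and 8.05% (3.30 to 15.9%) of 87 KO cells. Counted in UMIs, Trbc1 made up 34.4% (33.9 to 34.9%) of the Trbc UMIs of the WT SP clusters and 35.0% (34.4 to 35.5%) of the KO SP clusters, against 36.2% and 37.3% at the Rag1 stage. Next, 10 Trbc UMIs were drawn from every cell that had at least 10, which evens the number of UMIs but not which cells qualify. This left an expected 33.0% of WT and 31.8% of KO cells of the Rag1 stage with no Trbc1, and 37.5% and 33.9% of SP cells. Cells with at least 10 were 96.1% of WT and 97.6% of KO cells of the Rag1 stage, and 97.0% and 94.1% of SP cells. Trbc UMIs also occurred in clusters of other cell types: the Cd74 cluster, with B, dendritic and macrophage markers, held 296 and 606 CPM of Trbc1, and the Apoe cluster, with macrophage markers, 166 and 224, which is more than clusters 2, 3 and 9 held. They were not spread evenly, since 3 of 63 WT and 12 of 87 KO cells of the Cd74 cluster had at least 10 Trbc UMIs.

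**Figure D2:**
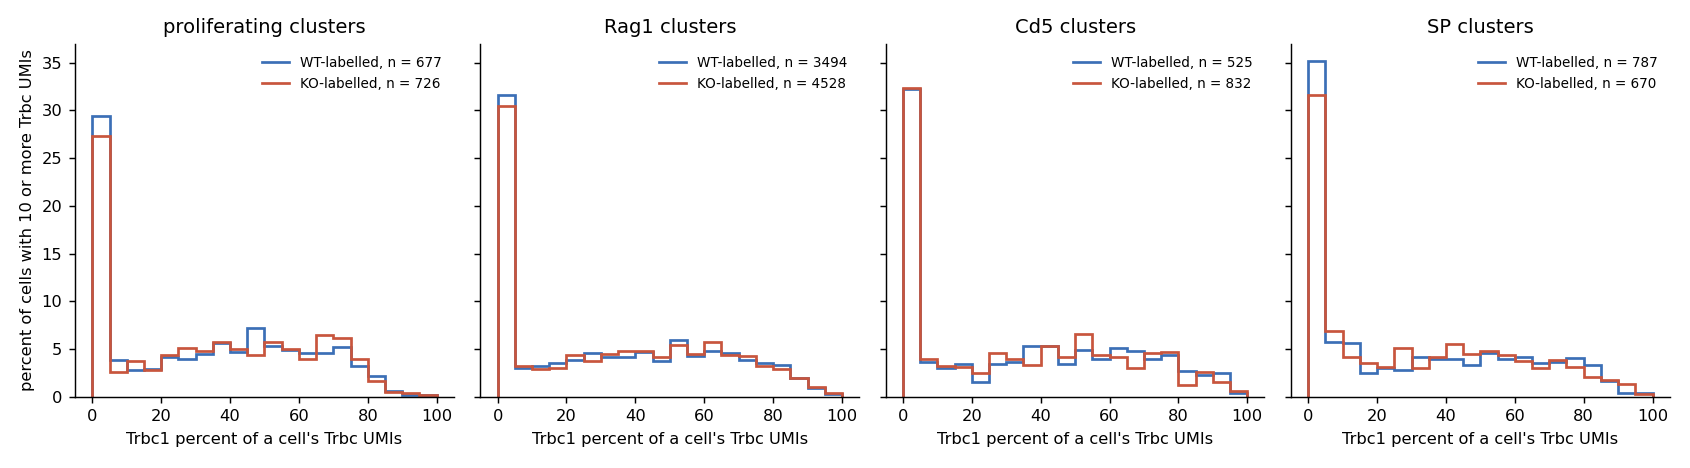
Percent of cells (vertical axis) by the Trbc1 percent of their Trbc UMIs (horizontal axis, bins of 5 percentage points), for cells with at least 10 Trbc UMIs of the WT (blue) and KO (red) libraries in 4 groups of clusters. In every panel the lowest bin holds the most cells, 27.3 to 35.2%, and the remaining cells spread over a broad hump with few above 90%.

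The levels of cells under the mark are given as a description, since the mark itself bears on them: of these cells 989 of 1106 in WT and 1209 of 1381 in KO had no Trbc1 UMI at the Rag1 stage. At the Rag1 stage the log2 ratio of cells under the mark to the other cells was 0.62 (0.60 to 0.64) for Trbc2 in WT and 0.61 (0.59 to 0.63) in KO, and -0.35 (-0.37 to -0.34) and -0.37 (-0.39 to -0.36) for the sum of both genes. The SP clusters gave -0.45 (-0.49 to -0.41) and -0.43 (-0.47 to -0.39) for that sum. Neither value is independent of the mark, since a cell under it must reach 10 Trbc UMIs nearly by Trbc2 alone and has little Trbc1 to add to the sum. The other 8 genes lay between -0.06 and 0.08 in both libraries at the Rag1 stage. Cd3e, for example, had -0.04 (-0.10 to 0.01) in WT and -0.03 (-0.08 to 0.01) in KO, and Lck -0.01 (-0.05 to 0.04) and -0.02 (-0.06 to 0.02). Larger values occurred at other stages. In the proliferating clusters Trac had -0.27 (-0.45 to -0.09) in WT and -0.25 (-0.42 to -0.09) in KO, and Cd3g -0.14 (-0.21 to -0.08) and -0.27 (-0.32 to -0.21). In the Cd5 clusters of WT Cd247 had -0.31 (-0.58 to -0.06) and Lat -0.22 (-0.41 to -0.04), against -0.08 (-0.26 to 0.09) and -0.07 (-0.21 to 0.07) in KO. There 160 of 169 WT and 261 of 269 KO cells under the mark lay in cluster 9, so mostly clusters 9 and 5 are compared.

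Trac (chr14:54220521-54224206, plus strand) differed more than any other of the 10 genes between the proliferating, Rag1 and Cd5 clusters. In WT it stood at 129 (122 to 136) CPM in the proliferating clusters, 558 (544 to 572) in the Rag1 clusters, 1443 (1390.0 to 1498) in the Cd5 clusters, 891 (858 to 925) among Itm2a-cluster cells and 811 (775 to 848) among Ms4a4b-cluster cells. The KO values were 126, 584, 1504, 872 and 806. The Cd5 clusters were therefore highest in both libraries, and the SP clusters stood between them and the Rag1 clusters. In KO the Itm2a and Ms4a4b levels overlapped within their intervals. The step from the Rag1 to the Cd5 clusters was 1.37 (1.31 to 1.44) on the log2 scale in WT and 1.36 (1.31 to 1.41) in KO.

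A UMI counts a transcript once by its 3′ end, whatever its length, so the UMIs of the alpha and beta constant genes were set side by side within a cell group. How well each gene is captured and assigned was not tested, so the shares are of UMIs and not of transcripts. Trac made up 1.38% (1.31 to 1.46%) of the Trac and Trbc UMIs of WT proliferating cells and 1.38% (1.32 to 1.45%) in KO. It made up 4.26% (4.16 to 4.37%) and 4.70% (4.61 to 4.80%) in the Rag1 clusters, 10.1% (9.75 to 10.5%) and 10.9% (10.7 to 11.2%) in the Cd5 clusters, 12.5% (12.015 to 12.9%) and 9.50% (9.06 to 9.94%) among Itm2a-cluster cells and 14.4% (13.8 to 15.004%) and 13.1% (12.6 to 13.7%) among Ms4a4b-cluster cells. Trac UMIs therefore stayed a minority of these UMIs at each stage, and their share was highest in the last. The Itm2a cluster is where the libraries were farthest apart in this share, lower in KO, where both Trbc genes were higher and Trac was not.

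Both beta genes peaked in DP cells and were lower in SP cells. Trbc2 stood at 7992 (7939 to 8045) CPM in the WT Rag1 clusters, 7807 (7682 to 7933) in the Cd5 clusters, 4178 (4106 to 4252) among Itm2a-cluster cells and 3074 (3003 to 3146) among Ms4a4b-cluster cells, and at 7416, 7667, 5439.8 and 3429 in KO. Trbc1 ran from 4540.3 and 5034 to 2087 and 1749 in WT, and from 4419 and 4591 to 2867 and 1895 in KO. The SP over Rag1 log2 ratios were -1.23 (-1.26 to -1.20) and -0.92 (-0.95 to -0.89) for Trbc1 and -1.11 (-1.13 to -1.09) and -0.77 (-0.80 to -0.75) for Trbc2, so the drop was smaller in the KO library for both.

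**Figure D3:**
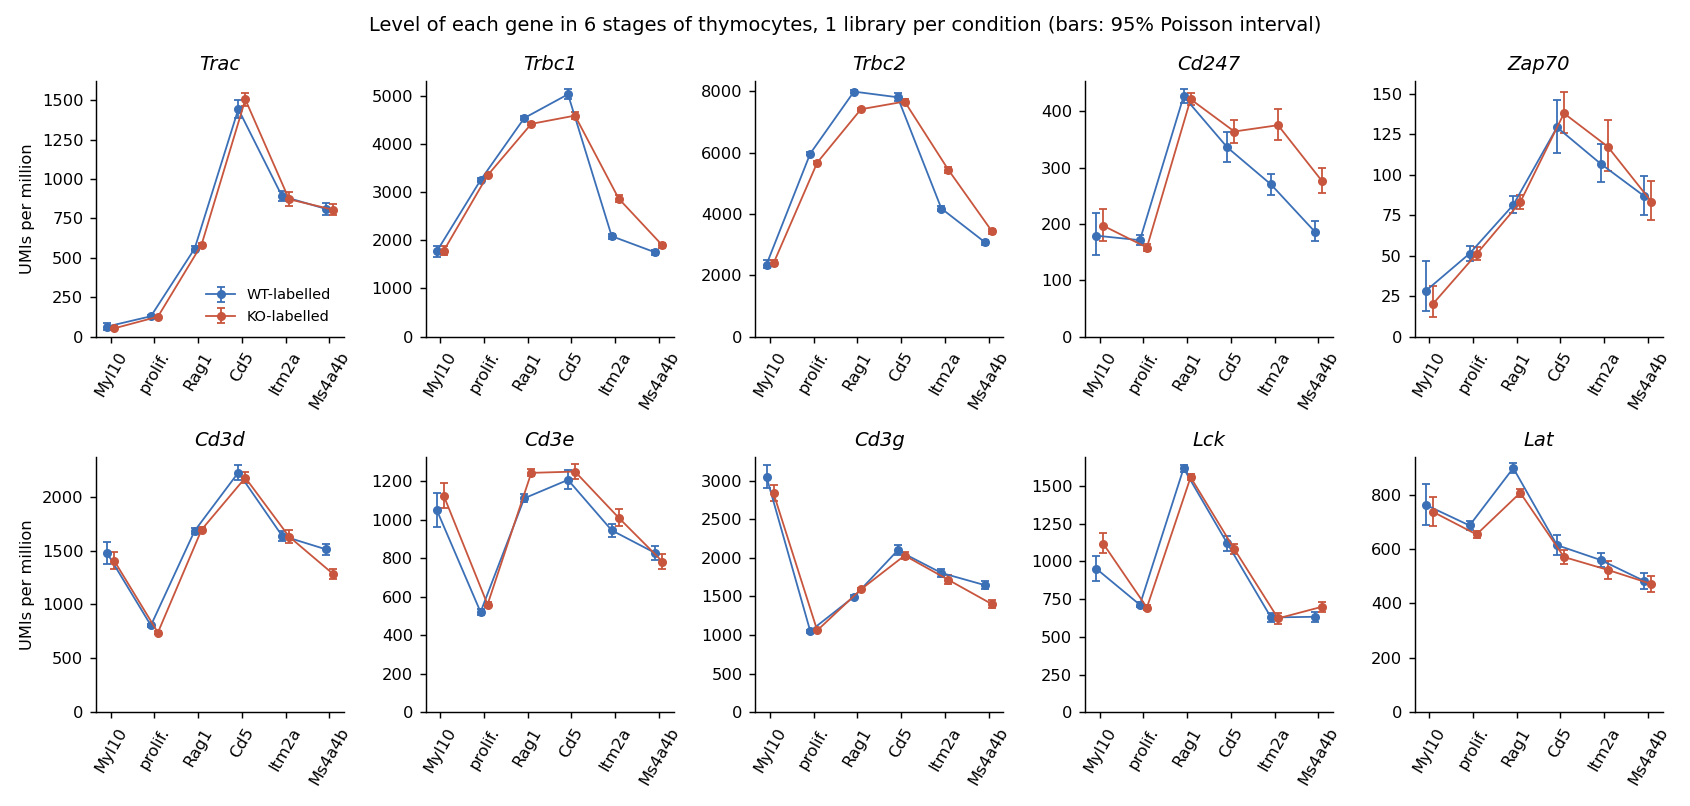
Level of each of the 10 genes in CPM (vertical axes start at 0 and differ between panels) in 6 groups of clusters (horizontal axis), for the WT library (blue) and the KO library (red), each point 1 library with its exact 95% Poisson interval. Trac rises from 129 to 1443 between the proliferating and Cd5 clusters of WT, Lck and Lat peak in the Rag1 clusters, and the KO points lie above the WT line in both SP clusters for Trbc1, Trbc2 and Cd247.

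The CD3 chains Cd3g, Cd3d and Cd3e are encoded together on chromosome 9, within 40056 bases (Cd3g chr9:44969572-44980431, minus strand; Cd3d chr9:44981786-44987339, plus strand; Cd3e chr9:44998740-45009627, minus strand). Cd3g and Cd3d are transcribed away from each other, with 1354 bases between them. Over the 19 deposited clusters, with both libraries added, Cd3d was most like Cd3e (Pearson's r = 0.971) and Cd3g (r = 0.955) in log2 levels. This is a description over points that share libraries and depth. The 19 include the Cd74 and Apoe clusters of other cell types, so r also holds the difference between those and T cells. Cd3e had r = 0.927 with Lck too. The RefSeq promoters of the neighbours are shown from 250 bases before to 50 after the start on GRCm38.p6, in the direction of transcription. CAGGTG (an E-box), AGGAAG (an ETS-type core) and TGTGGT (a RUNX-type core), or the reverse complements, are in capitals:
Cd3g chr9:44980382-44980681, minus strand: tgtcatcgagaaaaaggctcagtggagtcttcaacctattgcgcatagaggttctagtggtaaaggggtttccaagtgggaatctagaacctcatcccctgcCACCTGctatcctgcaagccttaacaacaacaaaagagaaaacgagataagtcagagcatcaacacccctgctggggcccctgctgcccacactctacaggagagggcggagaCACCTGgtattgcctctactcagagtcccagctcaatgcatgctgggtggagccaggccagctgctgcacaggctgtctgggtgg
Cd3d chr9:44981536-44981835, plus strand: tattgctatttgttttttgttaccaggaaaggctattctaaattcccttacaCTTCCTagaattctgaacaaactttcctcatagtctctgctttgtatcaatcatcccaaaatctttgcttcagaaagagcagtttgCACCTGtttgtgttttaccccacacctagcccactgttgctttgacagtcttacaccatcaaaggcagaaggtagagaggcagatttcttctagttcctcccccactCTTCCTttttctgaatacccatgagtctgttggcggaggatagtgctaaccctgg
Cd3e chr9:45009562-45009861, minus strand: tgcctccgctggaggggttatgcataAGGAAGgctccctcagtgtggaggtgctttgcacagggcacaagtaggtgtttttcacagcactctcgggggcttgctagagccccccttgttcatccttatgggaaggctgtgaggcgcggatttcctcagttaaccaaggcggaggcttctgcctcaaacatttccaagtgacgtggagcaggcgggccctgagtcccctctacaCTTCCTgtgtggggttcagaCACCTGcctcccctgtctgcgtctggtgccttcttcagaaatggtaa
CAGGTG was found in 8 of the 10 promoters that the RefSeq table gives for 7 of the 10 genes, AGGAAG in 8 and TGTGGT in 3. Of all 32851 promoters of this length, 20.2%, 35.4% and 16.8% hold these letters on either strand. A match is a string of letters and not a site, and the alternative starts of Lck and Zap70 make up 5 of the 10.

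Cd3d and Cd3g were higher in the Cd5 clusters than in the Rag1 or the SP clusters, by less than 1.5-fold against the Rag1 clusters. Cd3d stood at 1682 (1658 to 1707) CPM in the WT Rag1 clusters, 2223 (2157 to 2291) in the Cd5 clusters, 1637 (1592 to 1683) among Itm2a-cluster cells and 1512 (1462 to 1562) among Ms4a4b-cluster cells, against 1693, 2175, 1629 and 1286 in KO. Cd3g went from 1496 and 2096 to 1805 and 1646 in WT, and from 1591 and 2030.4 to 1715 and 1399.8 in KO. Cd3e stood at 1113, 1208, 946 and 828 in WT and 1245, 1251, 1011 and 784 in KO, where the Rag1 and Cd5 intervals overlapped. Cd3g differed from its neighbours in the Myl10 cluster, where it had its highest level of all thymocyte clusters, 3048 (2902 to 3201) in WT and 2837 (2733 to 2943) in KO. There the gamma-delta markers summed to 2245 and 1986 CPM, and Trac was at 64.1 and 52.5.

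Cd247, the zeta chain (chr1:165788681-165877277, plus strand), was close to Cd3e over the 19 clusters (r = 0.955). Unlike the CD3 chains, Cd247 was lower in the Cd5 than in the Rag1 clusters of both libraries. Its WT level was highest in the Rag1 clusters at 426 (414 to 439) CPM and lower at each later step, 336 (310.2 to 363), 270.0 (252 to 289) and 186 (169 to 205). The KO library had 421 (411 to 432), 364 (344 to 385), 375 (348 to 404) and 277 (255 to 299), so that the Cd5 and Itm2a levels overlapped and both SP levels lay above those of WT. From Rag1 to SP its log2 ratio was -0.87 (-0.96 to -0.78) in WT and -0.39 (-0.48 to -0.31) in KO.

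The kinase Lck (chr4:129548344-129573641, minus strand) had the largest fall from DP to SP cells of the 10 genes. Its WT level was 1617 (1594 to 1642) CPM in the Rag1 clusters, 1119 (1072 to 1168) in the Cd5 clusters, 629 (601 to 658) among Itm2a-cluster cells and 633 (601 to 667) among Ms4a4b-cluster cells, where the last pair overlapped. The KO levels were 1558, 1082, 623 and 699. The adaptor Lat (chr7:126363824-126369570, minus strand) went the same way, from 898 to 614, 559.6 and 482 in WT and from 807 to 571, 523 and 472 in KO. Zap70 (chr1:36761798-36782818, plus strand) did not: it rose from 81.4 (76.2 to 87.0) in the WT Rag1 clusters to 129 (114 to 147) in the Cd5 clusters and stood at 107 and 86.7 in the SP clusters, with 83.1, 138, 117 and 83.4 in KO. Lck, which acts first, and the adaptor Lat were thus lower in the Cd5 and SP clusters than in the Rag1 clusters. Zap70, which acts between them, was higher in the Cd5 than in the Rag1 clusters. Its Cd5-cluster intervals overlapped those of the Itm2a cluster in both libraries. The WT Zap70 intervals of the Rag1 and Ms4a4b clusters overlapped, the latter resting on 202 UMIs.

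The median of the 10 genes from DP to SP cells lay below that of all genes. Their median log2 ratio of the SP clusters over the Rag1 clusters was -0.54 in WT, where that of 12226 genes was -0.27, and -0.44 in KO, where that of 12710 genes was -0.13. In WT 1 member was at least 1.5-fold higher, Trac at 0.62 (0.56 to 0.67), where 18.3% of all genes were, and 5 were at least 1.5-fold lower, Lck, Trbc1, Trbc2, Cd247 and Lat, where 32.3% of all genes were. In KO 0 were higher, against 18.2% of all genes, and 4 were lower, Lck, Trbc1, Trbc2 and Lat, against 24.3% of all genes. In WT Cd3d (-0.09, -0.12 to -0.05) and Cd3g (0.21, 0.18 to 0.25) lay closer to 0, so the receptor genes did not move as a block. TMM factors gave 22.4% of all genes higher and 24.3% lower in WT, and with them 4 members were lower, since Lat at -0.58 no longer passed 1.5-fold. The SP cells were deeper, with a median of 6134 and 5199.5 UMIs against 2823 and 3097 in the Rag1 clusters, and a lower level in CPM is not by itself fewer transcripts per cell.

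Among 60 further genes of the TCR pathway, 59 had enough UMIs for this step, and 12 were higher and 19 lower in WT (median -0.23), beside 18.3% and 32.3% of all genes. In KO 14 were higher and 15 lower (median -0.07), beside 18.2% and 24.3% of all genes, so the WT counts are near the share of all genes. With TMM factors 15 were higher and 15 lower in WT and 15 and 14 in KO. Ptcra, the pre-TCR alpha chain, had the lowest log2 ratio in WT (-4.08, -4.94 to -3.41), from 51.9 to 2.97 CPM. It was followed by the Tec-family kinase Tec (-2.97, -3.41 to -2.59), the CD8 beta chain Cd8b1 (-2.69, -2.74 to -2.63) and Themis (-2.60, -2.70 to -2.50), an adaptor of thymic selection. The highest were Ubash3b (4.29, 3.57 to 5.21), a phosphatase that attenuates TCR signals, the adhesion receptor Cd2 (3.26, 3.14 to 3.37), the inhibitory receptor Cd5 (2.33, 2.20 to 2.46) and Fyn (1.57, 1.43 to 1.70), the Src-family kinase next of kin to Lck. Fyn rose from 69.6 to 206 CPM in WT and from 71.5 to 215 in KO, while Lck fell from 1617 to 631 and from 1558 to 665.

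Between the genotypes, no member differed by 1.5-fold at any of the 4 main stages. In the Rag1 clusters the ratios of KO over WT ran from -0.15 for Lat to 0.16 for Cd3e, with a median of -0.00 against 0.05 over all genes. There 5.80% of all genes were at least 1.5-fold higher and 2.57% lower. In the Cd5 clusters they ran from -0.13 for Trbc1 to 0.12 for Cd247, with a median of -0.03 against 0.04, where 7.02% of all genes were higher and 3.56% lower. Many of these small differences exceed counting error, as Lat at -0.15 (-0.19 to -0.12) and Cd3e at 0.16 (0.13 to 0.19) do in the Rag1 clusters, but with 1 library of each genotype they cannot be set against the spread between mice. In the proliferating clusters the ratios of the 10 genes ran from -0.12 to 0.10, and these cells, like the DP cells, gave nearly equal levels in both libraries.

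In the Itm2a cluster 3 members stood out from the others. Trbc1 was at 2087 (2036 to 2138) CPM in WT and 2867 (2791 to 2945) in KO, Trbc2 at 4178 (4106 to 4252) and 5439.8 (5335 to 5546), and Cd247 at 270.0 (252 to 289) and 375 (348 to 404). The log2 ratios were 0.46 (0.41 to 0.51), 0.38 (0.34 to 0.42) and 0.47 (0.33 to 0.62), and the other 7 lay between -0.10 and 0.14. The median of the 10 was 0.04, below the 0.16 of all genes, of which 11.3% were at least 1.5-fold higher and 4.95% lower, against none of the 10 in either direction. With TMM factors 5.86% of all genes were higher and 8.73% lower, the median of the 10 was -0.12 against -0.01, and Trbc1, Trbc2 and Cd247 were at 0.29, 0.21 and 0.31. The other 7 were then below 0.

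The Itm2a cluster was not the same mixture in both libraries. The KO cells had more Itm2a (1613 CPM in WT, 2064 in KO) and Cd5 (373, 522) and less Ms4a4b (323, 137) and Ccr7 (179, 122). At the authors' resolution of 1.8 the cluster falls mainly into clusters 10 and 12, and cluster 10 took 316 of 479 WT cells (66.0%, 61.5 to 70.2%) and 132 of 316 KO cells (41.8%, 36.3 to 47.4%). Trbc1 differed between them far more than between the genotypes: it was 1218 in WT and 1202 in KO in cluster 10, and 4769.5 and 4674 in cluster 12. Within each the genotypes were therefore level for Trbc1, with log2 ratios of -0.02 and -0.03, where Trbc1 was open to the clustering too. Trbc2 had 0.43 and 0.20, and Cd247 0.54 and 0.37.

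In the Ms4a4b cluster the zeta chain again differed most. Cd247 was at 186 (169 to 205) CPM in WT and 277 (255 to 299) in KO, a log2 ratio of 0.57 (0.39 to 0.75), just short of 1.5-fold. Cd3d and Cd3g lay on the other side, Cd3d at 1512 (1462 to 1562) and 1286 (1239 to 1333) and Cd3g at 1646 (1594 to 1699) and 1399.8 (1352 to 1449), with log2 ratios of -0.23 (-0.30 to -0.16) and -0.23 (-0.30 to -0.17). Trbc1 (0.12, 0.05 to 0.18), Trbc2 (0.16, 0.11 to 0.20) and Lck (0.14, 0.04 to 0.25) were slightly higher in KO, and factors from TMM or DESeq2, which lower every ratio here, turn the sign of these 3. The median of the 10 was -0.02 against 0.24 over all genes, of which 21.0% were at least 1.5-fold higher and 5.55% lower, and only 1 of the 10, Cd247, lay above the median of all. With TMM factors 9.48% of all genes were higher and 11.3% lower, the median of the 10 was -0.28 against -0.02 over all genes, and Cd247 was at 0.31, still the highest. The KO cells were shallower, with a median of 5032 UMIs against 6738. They also held more of the 6 gamma-delta markers (summed 208 CPM in WT, 402 in KO) and less of the 4 regulatory T cell markers (325, 137), mostly Ikzf2 (279, 131), and of the 5 innate-like T cell markers (536, 379), and Rag1 was higher (88.9, 184). Ikzf2 is not particular to these cells, with 842 and 836 CPM in the Cd5 clusters. Foxp3, which defines regulatory T cells, had 58 UMIs in WT and 0 in KO, where a count of 0 allows up to 3, and the gamma-delta constant gene Trdc stood at 92.8 and 206 CPM. The part of these in the member values was not tested.

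**Figure D4:**
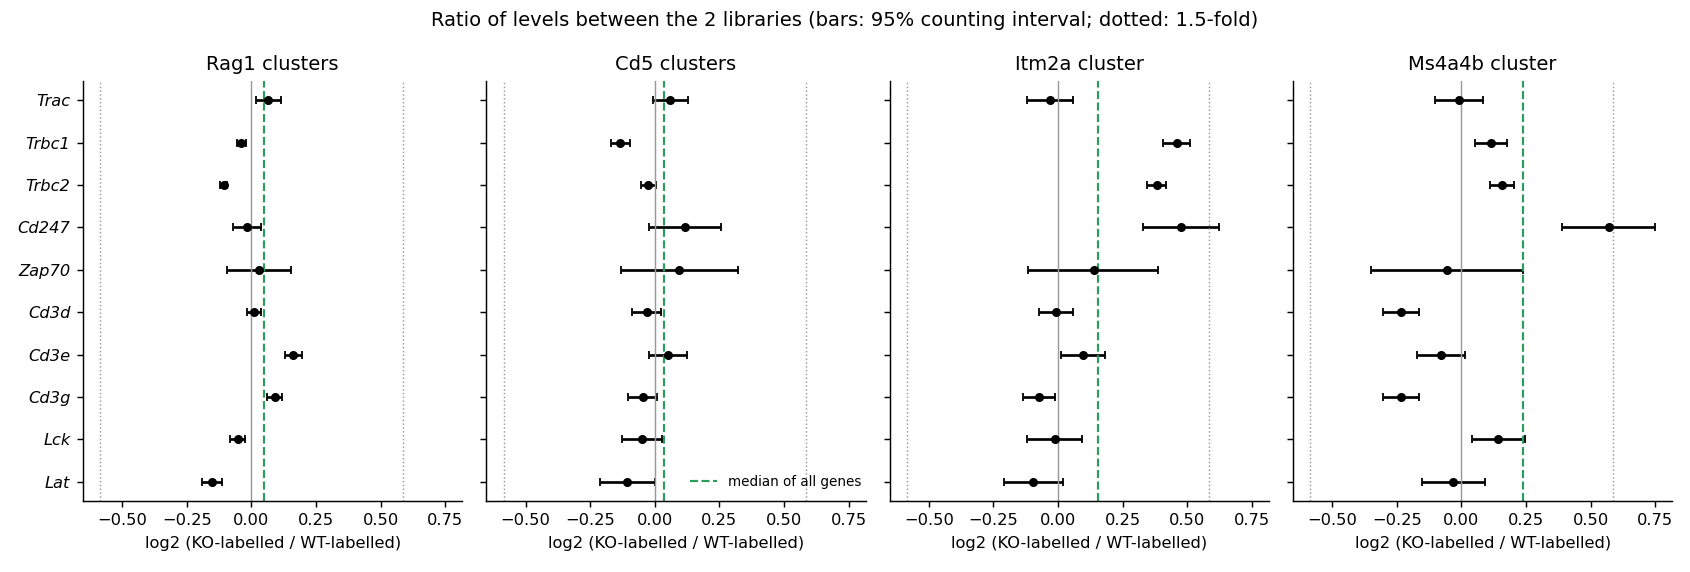
Log2 ratio of the KO over the WT library (horizontal axis) for each of the 10 genes (vertical axis) in 4 groups of clusters, with exact 95% counting intervals, a dashed line at the median of all genes and dotted lines at 1.5-fold. All points lie inside the dotted lines, and Cd247 is farthest to the right in both SP clusters, at 0.47 and 0.57.

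Cd247 was also higher in KO when SP cells were divided by their coreceptor UMIs. Over both SP clusters it was 241 CPM in 206 WT cells and 319.8 in 168 KO cells with Cd4 and no Cd8 UMIs. It was 187 in 245 WT and 259 in 162 KO cells with Cd8a or Cd8b1 and no Cd4 UMIs. Cd3g was at 1606 in the Cd4 and 1981 in the Cd8 cells of WT, and at 1595 and 1617 in KO. The Cd4 values join clusters that went opposite ways, 1635 in WT and 1792 in KO in the Itm2a cluster and 1554 and 1373 in the Ms4a4b cluster. Trac was nearly level between genotypes in both, with 903 and 908 in the Cd4 cells and 866 and 892 in the Cd8 cells. This division leaves out cells in which neither coreceptor, or both, were caught.

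Of the further pathway genes, 8 of 59 were at least 1.5-fold higher in KO and 1 lower in the Itm2a cluster (median 0.26), where 11.3% of all genes were higher and 4.95% lower (median 0.16). In the Ms4a4b cluster 8 of 58 were higher and 1 lower (median 0.31), where 21.0% of all genes were higher and 5.55% lower (median 0.24). With TMM factors, chosen for these counts after the data were seen, 3 were higher and 3 lower in the first, against 5.86% and 8.73% of all genes, and 3 higher and 1 lower in the second, against 9.48% and 11.3%. The gene that was lower was the same in both, Lax1, a membrane adaptor that restrains antigen receptor signals, with 19.987 CPM in WT and 10.6 in KO among Itm2a-cluster cells and 37.8 and 20.7 among Ms4a4b-cluster cells. Its log2 ratio was lowest there too, with counting intervals under 0 in the Itm2a (-0.89, -1.72 to -0.16) and Ms4a4b (-0.86, -1.41 to -0.34) clusters. The next lowest were Unc119 (-0.43, -1.34 to 0.38) and Plcg1 (-0.43, -0.89 to 0.01) in the Itm2a cluster and Unc119 (-0.22, -1.05 to 0.59) and Cd8a (-0.21, -0.36 to -0.06) in the Ms4a4b cluster. Tec was highest in both the Itm2a (1.15, 0.30 to 2.05) and the Ms4a4b cluster (1.39, 0.81 to 2.03). It was followed by the inhibitory adaptor Dok1 (0.94, 0.16 to 1.74) and Ptcra (0.93, -0.34 to 2.24, on 13 and 11 UMIs) in the Itm2a cluster, and by Dgka (0.87, 0.70 to 1.05), a lipid kinase that dampens the pathway, and Themis (0.85, 0.64 to 1.06) in the Ms4a4b cluster. Tec, Ptcra and Themis are also among the 4 that were lowest in SP against DP cells of WT.

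Likeness of pattern over the 19 clusters was searched among 8822 genes, as Pearson's r of log2 levels with both libraries added. It is a description over points that share libraries, and clusters of other cell types are among the 19. Lck was most like Trat1 (r = 0.979), the TCR-interacting adaptor, and Bcl11b (r = 0.965), a T-lineage transcription factor. Trbc2 was most like Tcf7 (r = 0.957), another such factor, and Sh2d1a (r = 0.935). Trac was most like Lonp2 (r = 0.942), Zap70 (r = 0.940) and Prkcq (r = 0.934), the kinase PKC-theta, and Zap70 after Trac was most like Kcnmb4 (r = 0.910). Cd247 was most like Sec22c (r = 0.965) and Cd3e (r = 0.955), and Lat most like Cd3g (r = 0.933) and Sla2 (r = 0.924). Trbc1 had no counterpart: its highest r was 0.475, with Rpusd3, and its r with Trbc2 was 0.149.

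The Lars2 cluster (8, 250 WT and 366 KO cells) was poor in RNA, with a median of 956 and 1199.5 UMIs per cell and 18.6% and 15.7% mitochondrial UMIs. All 10 genes stood below their Rag1-stage levels in it, but unevenly. Cd3d had a log2 ratio of -1.79 (-2.05 to -1.56) in WT and -1.73 (-1.92 to -1.56) in KO, and Lck -0.26 (-0.41 to -0.11) and -0.10 (-0.21 to 0.00). In the Cd74 cluster all 10 genes were below their levels in every thymocyte stage from the Rag1 clusters on. The KO over WT log2 ratios of the 9 genes with enough UMIs there ran from 0.02 to 1.48, with Lck at 77.3 and 221 CPM, while the KO cells were deeper (a median of 4284 UMIs against 1202) and held more Igkc, an immunoglobulin constant gene (2346 CPM in WT, 34742 in KO), which made up most of the 5 B cell markers (3664 and 38514 in all). The Trbc UMIs of the Cd74 cluster were uneven, since 3 of 63 WT and 12 of 87 KO cells had at least 10 of them. Its levels are therefore no floor for thymocytes, and Trbc1 was lower in clusters 2, 3 and 9.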

How the data were processed

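Thymus cells of both genotypes were profiled with 10x 3′ single-cell RNA-seq. The submitters' processing notes name Cell Ranger 3.0.2, STAR, Seurat and mm10; the study kept cells of 200 to 6000 genes and at most 50000 reads. The authors deposited UMI counts per gene and cell, not normalized, with cluster numbers at resolutions 1.5, 1.8 and 2; the deposited column of mitochondrial percent was not used, and that percent was computed from the counts. The library of a cell was taken from the WT or KO in its name, which begins with Cdc45 where the labels say cdc42; 0 per-sample columns were left unused.

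Sums of UMIs for each group of clusters and library were taken with Python 3.11.15, NumPy 2.4.6, pandas 2.3.3 and SciPy 1.17.1, and given as CPM, per 1000000 UMIs of the same cells (Poisson intervals for levels, Clopper-Pearson intervals for shares, conditional binomial intervals for ratios, 95%). Genes with at least 20 UMIs over both sums entered a comparison. With 1 library per genotype there is no test and no p-value; intervals narrow with depth (29706197 and 37920214 UMIs) and cover counting error only. The ratio script was checked on simulated counts with known changes. Figures were drawn with matplotlib 3.10.9.

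Doublets were left in: Scrublet in scanpy 1.11.5 marked 2 of 6115 WT and 0 of 7568 KO cells, too few to have worked, so leaving out the 6% of cells with the highest scores was an alternative. Others were TMM factors (edgeR 4.0.16 in R 4.3.3), DESeq2 1.42.0 size factors, other totals, other minimums of UMIs, thinning to 1000 UMIs, other cell filters and other resolutions. The genes, the 60 pathway genes, the markers and the settings were chosen with earlier results of these data known. Named pathway genes are the 4 highest and 4 lowest in SP over DP cells of WT and the 3 highest and 3 lowest in KO over WT in each SP cluster; genes most like a member were ranked by r of log2(CPM + 10) among genes with at least 500 UMIs. Positions are those of GENCODE vM21 (GRCm38) and promoters those of RefSeq (GRCm38.p6).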

Additional observations from a re-analysis of the deposited data

How the results depend on the processing

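No paired analysis was possible because each genotype is 1 pooled library, and for the same reason no replicate could be left out. The median KO over WT ratio of the 10 genes in the Rag1 and in the Cd5 clusters stayed within its counting interval under all 17 alternatives. These include minimums of 1, 5 and 50 UMIs, which could not change a value because all 10 genes passed them. In the Itm2a cluster it went from 0.04 to -0.12 with TMM and -0.12 with DESeq2 factors, to 0.21 for the summed UMIs of the 10 genes and to 0.15 in cells with Cd4 UMIs alone. In the Ms4a4b cluster it went from -0.02 to -0.19 with totals without ribosomal protein and mitochondrial genes, -0.28 with TMM and -0.24 with DESeq2 factors. The SP over DP median in WT, -0.54, became -0.34 with totals without ribosomal protein and mitochondrial genes, -0.35 with TMM, -0.34 with DESeq2 factors, -0.41 with cells thinned to 1000 UMIs and -0.74 for the summed UMIs. In KO, -0.44 became -0.35 with totals without ribosomal protein and mitochondrial genes and -0.61 for the summed UMIs. The Trbc1 share of Trbc UMIs in SP cells was 33.8% in WT and 33.8% in KO as a mean over cells. In KO it was 32.7% with thinned cells and 33.3% without the highest Scrublet scores. With the clusters of resolution 1.8 or 2 it was 41.6% and 41.0%, but over other cells. There the cluster with the most Itm2a alone replaced the Itm2a cluster. At 1.8 this left out cluster 10, which held 66.0% of WT and 41.8% of KO cells of the Itm2a cluster. Trbc1 was at 1218 and 1202 CPM in cluster 10, against 4769.5 and 4674 in cluster 12. The percent of cells under the Trbc1 mark, whose alternatives were chosen after seeing the data, was 28.9% of WT and 27.3% of KO cells of the Rag1 stage with the mark at 2%, 34.7% and 33.8% at 10%, and 27.6% and 27.0% with at least 20 Trbc UMIs. In SP cells it was 30.9% and 26.7% at 2% and 40.9% and 38.5% at 10%. Of 1020 values of single genes under alternatives, 799 stayed within the counting interval of the value reported, and none of the values past 1.5-fold changed sign. The 799 include all values under those minimums, which were fixed in advance. Cd247 was higher in KO in both SP clusters under every alternative, and passed 1.5-fold in the Ms4a4b cluster without the highest Scrublet scores (0.60) and in cells with Cd8a or Cd8b1 UMIs alone (0.87). Trbc1 in the Itm2a cluster passed it in cells with Cd8a or Cd8b1 UMIs alone (0.59). For SP over DP cells, Trac passed it in KO with totals without ribosomal protein and mitochondrial genes (0.60) and no longer in WT with thinned cells (0.58), and Lat no longer in WT with those totals (-0.57), TMM (-0.58) or DESeq2 factors (-0.57). The causes were not tested.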

Other observations

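Rag1, the recombinase subunit that DP cells switch off once signalled, was lower in cells under the Trbc1 mark than in the other cells of the same stage once the Rag1 stage was past, a comparison chosen after its values were seen. In the Cd5 clusters of WT Rag1 stood at 172 CPM in 169 cells under the mark and at 274 in 356 others. In KO it stood at 168 in 269 and 294 in 563 cells. Of the cells under the mark there, 160 in WT and 261 in KO lay in cluster 9. This is therefore mostly a comparison of clusters 9 and 5, and how else these differ was not tested. In the SP clusters of KO it stood at 79.9 in 212 cells under the mark and 189 in 458 others, and in those of WT at 65.3 in 277 and 91.2 in 510. The Itm2a cluster of WT went the other way, with 84.5 under the mark and 69.0 above it. Over both SP clusters Rag1 was at 13.8 CPM in WT and 16.2 in KO cells with Cd4 UMIs alone. Cells with Cd8a or Cd8b1 UMIs alone had 19.5 and 86.0. The whole Itm2a cluster had 74.7 and 107, and the whole Ms4a4b cluster 88.9 and 184. Doublets were left in, and the part of doublets or of admixed DP cells in these differences was not tested. At the Rag1 stage itself the log2 ratio was -0.04 (-0.08 to -0.01) in WT and -0.07 (-0.10 to -0.04) in KO.

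Cd8a, a coreceptor chain, differed with the Trbc1 mark in the SP clusters of KO, at 204 CPM under the mark and 366 in the other cells, a log2 ratio of -0.84 (-1.05 to -0.64). The SP clusters of WT had 387 and 353, a log2 ratio of 0.13 (-0.00 to 0.27). The difference between the libraries was not tested, and the mice were pooled. The part of doublets or of admixed DP cells in the Cd8a values was not tested either.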
